A study of Mus musculus with 12 samples.

Results

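The effect of genotype on liver RNA that fed and fasted mice share was measured in all 12 mice of the study, by comparing the 6 libraries labelled Nts-/- with the 6 libraries labelled Nts+/+ after adjustment for feeding state. Of the 48795 genes in the table, 13812 had enough counts to be tested. The mice were 4-month-old female littermates on normal chow, and each genotype had 3 mice fed ad libitum and 3 mice fasted for 22 h. The Nts-/- label stands for a knockout of the whole body and not of the liver alone, and the agents and diets of the study other than normal chow do not enter. The groups were Nts+/+ fed (mice 254, 257 and 323), Nts+/+ fasted (265, 282 and 322), Nts-/- fed (277, 303 and 319) and Nts-/- fasted (284, 290 and 295).

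Neurotensin is a short peptide hormone that enteroendocrine cells of the small intestine release after a fatty meal, and it is also a neuropeptide. It is cut from a precursor encoded by Nts and acts through the G protein-coupled receptors Ntsr1 and Ntsr2, while the sorting receptor Sort1 binds it as well. Liver cells take up fatty acids through carriers such as Cd36, oxidize them in mitochondria when food is withheld, and turn to making fat and sterols when it is plentiful.

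The libraries held between 21999647 and 45273069 counts each, and 3 counts, taken as the floor of detection, amounted to 0.0663 to 0.136 CPM, a unit that scales the counts of a gene to its library's total. Genes of the mitochondrial DNA took between 2.24% and 5.18% of the counts in Nts+/+ and between 2.70% and 5.81% in Nts-/- livers. The 10 hepatocyte markers summed to between 131765 and 161805 CPM in every library. In fed livers these sums overlapped between genotypes, at 141534 to 161805 CPM in Nts+/+ and 139770 to 155111 CPM in Nts-/- mice. In fasted livers they did not, at 142551 to 151056 CPM in Nts+/+ and 131765 to 138406 CPM in Nts-/- mice. The part of cell composition in any result was not tested. The 4 Y chromosome genes were at 0 in all libraries. Listed markers without a count were Prss1, Cpa1, Ctrb1, Pnlip and Ins2 of pancreas, Sis, Cdx1 and Chga of intestine, and Acta1, Myh4 and Pvalb of muscle. Other members of these lists did have counts. The 10 pancreas markers together were 7.94 to 14.1 CPM in fed and 3.13 to 5.34 CPM in fasted livers, and the 10 muscle markers 0.161 to 0.891 CPM. The part of pancreatic or muscle RNA in any result was not tested. The 10 intestine markers together were 42.9 to 99.3 CPM in fed Nts+/+ and 54.6 to 63.1 CPM in fed Nts-/- livers. In fasted livers their sums did not overlap, at 135, 137 and 115 CPM in Nts+/+ and 201, 161 and 196 CPM in Nts-/- mice. Fabp2, a fatty acid binding protein, made up most of these sums, and its difference over both states did not pass the test (log2 fold change 0.099, SE 0.21, adjusted p = 0.951). That value joins states that differed. The 2 intestine markers with enough counts to be tested had a median log2 fold change of -0.32 in fed and 0.77 in fasted livers. The part of intestinal RNA in any result was not tested. The labels give all 12 libraries the same batch, 2015. The fasting term of the same model passed an adjusted p of 0.05 in 4519 genes (32.7%).

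The targeted gene was detected only in the libraries labelled Nts-/-, the genotype that should lack it. The study locates neurotensin in the nervous system and in enteroendocrine cells of the gut, with lymphatic endothelial cells of fat as another source. What level of Nts wild-type liver should have was not tested. Nts (ENSMUSG00000019890, chromosome 10 from 102481760 to 102490418, GRCm38) had 0 counts in all 6 libraries labelled Nts+/+. In the libraries labelled Nts-/- it had 46, 40 and 15 counts in fed mice and 12, 4 and 18 counts in fasted mice. The groups did not overlap, and every library labelled Nts-/- was above every library labelled Nts+/+. The mean in the libraries labelled Nts-/- was 0.767 ± 0.550 CPM (SD, n = 6), which was at least 6.88-fold higher than the mean floor of 3 counts per library in the libraries labelled Nts+/+. A two-sided exact permutation test of log2(CPM + 1) within feeding state gave p = 0.005, the smallest that its 400 assignments allow. The table counts reads per gene, so reads from one exon and reads from the whole transcript cannot be told apart. Directions below are those of the deposited labels. Whether the labels were exchanged was not tested, and an exchange would reverse every higher and lower given here.

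The sequence before the start of Nts is shown because Nts is the gene that separated the labels most clearly. The 250 bases upstream of its RefSeq start lie at chr10:102490419-102490668 on the minus strand (GRCm38.p6). Capitals mark a match to the AP-1 motif TGANTCA, which was searched on both strands and occurs in 7.81% of the 32851 promoter windows of RefSeq (250 bases before to 50 after each start). The cAMP response element in its exact form TGACGTCA, found in 1.79% of the windows, has no match in this stretch. The stretch does hold the close form TGACATCA, and such variants were not searched.
Nts: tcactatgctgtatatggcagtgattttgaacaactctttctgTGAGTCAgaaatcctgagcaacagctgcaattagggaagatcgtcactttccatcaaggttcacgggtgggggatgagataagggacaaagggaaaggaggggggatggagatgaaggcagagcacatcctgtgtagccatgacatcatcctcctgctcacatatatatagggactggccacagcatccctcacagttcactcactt

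Across all genes, Nts was the 1 gene called. It was higher in the libraries labelled Nts-/- (1 of 13812 genes, 0.00724%; edgeR quasi-likelihood test, adjusted p = 0.0494), and 0 genes were lower at an adjusted p under 0.05. The call was a narrow one. It was lost when any of mice 254, 257, 265, 277, 284, 295, 303, 322 or 323 was left out (adjusted p between 0.0633 and 0.237), and it held without mouse 282, 290 or 319 (0.0376, 0.0462 and 0.0253). Before adjustment, 862 genes (6.24%) had a p under 0.05, with 457 higher (3.31%) and 405 lower (2.93%). The Wald test of DESeq2 called 13 genes, 9 higher and 4 lower. The fitted values of all tested genes were centred near 0, with 6870 higher, 6942 lower and a median log2 fold change of -0.0011.

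**Figure D1:**
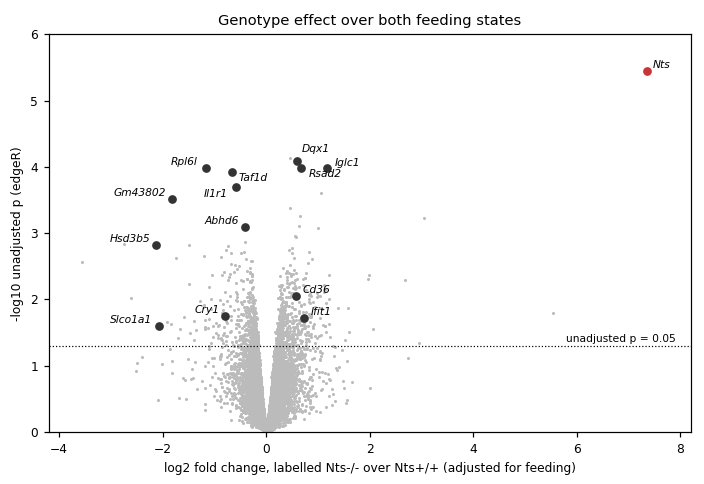
Each point is 1 of 13812 genes, placed by its log2 fold change between libraries labelled Nts-/- and Nts+/+ adjusted for feeding (horizontal) and by -log10 of its unadjusted p from edgeR (vertical). Nts, in red, is the only gene past an adjusted p of 0.05; its fitted position at 7.35 depends on the prior count, because the libraries labelled Nts+/+ are at 0, and is no bound.

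Few genes kept the genotypes apart in both feeding states. Groups of 3 mice can also separate without a genotype effect, and how many genes would do so was not estimated. For 90 genes (0.652%) the 3 Nts-/- and 3 Nts+/+ mice did not overlap in fed livers or in fasted livers and differed in the same direction, with 38 higher (0.275%) and 52 lower (0.376%). For 18 genes (0.130%) all 6 Nts-/- mice lay on one side of all 6 Nts+/+ mice, 7 of them higher (0.0507%) and 11 lower (0.0796%). Nts, Iglc1, Hypk and Stard3nl were among the 7, and Rpl6l was among the 11. The share of all genes apart in a single feeding state was not counted, so such separations below have no background beside them.

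Levels of single genes are given from here on as TMM-normalized CPM, which also take up each library's TMM factor. Dqx1, a member of the DEAQ-box family of RNA-dependent ATPases, had 9.49, 6.88 and 10.1 CPM in fed and 5.84, 5.16 and 5.40 CPM in fasted Nts+/+ mice, against 11.0, 13.3 and 13.5 CPM in fed and 8.38, 8.66 and 9.31 CPM in fasted Nts-/- mice. It was separated within each state but overlapped between states (log2 fold change 0.60, SE 0.11, adjusted p = 0.233).

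Iglc1 encodes a constant region of the lambda immunoglobulin light chain. It was between 0.517 and 1.03 CPM in Nts+/+ mice (median 0.856) and between 1.33 and 2.54 CPM in Nts-/- mice (median 1.73), with no overlap of the 6 against 6 mice. Its log2 fold change was 1.17 (SE 0.22, adjusted p = 0.233). Iglc1 has close copies, so reads may be split among them. Of the 8 plasma cell markers, 7 were also higher in Nts-/- livers, against 49.7% of all genes (median log2 fold change 0.34), 1 of the 8 had an unadjusted p under 0.05, against 6.24% of all genes, and their summed level was 417 to 626 CPM in Nts+/+ and 453 to 637 CPM in Nts-/- mice, with overlap. In bulk liver, fewer cells of a type and less RNA per cell cannot be told apart, and the part of plasma cells in the Iglc1 difference was not tested.

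Rsad2, an antiviral enzyme induced by interferon, had 10.7, 9.64 and 11.5 CPM in fed and 7.16, 7.44 and 5.72 CPM in fasted Nts+/+ mice. In Nts-/- mice it had 14.4, 19.004 and 17.1 CPM when fed and 8.89, 9.44 and 14.3 CPM when fasted. Each state was separated, and the log2 fold change was 0.66 (SE 0.19) in fed and 0.69 (SE 0.19) in fasted livers, or 0.68 (SE 0.13, adjusted p = 0.233) over both. Hypk, a chaperone-like partner of the NatA acetyltransferase, and Stard3nl, a late endosomal membrane protein, came next in the Nts-/- direction, at 1.06 (SE 0.22, adjusted p = 0.383) and 0.45 (SE 0.099, adjusted p = 0.517). Both were chosen after their values were seen. Hypk was at most 6.54 CPM in Nts+/+ and at least 6.83 CPM in Nts-/- mice, and Stard3nl at most 9.30 and at least 10.7 CPM.

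**Figure D2:**
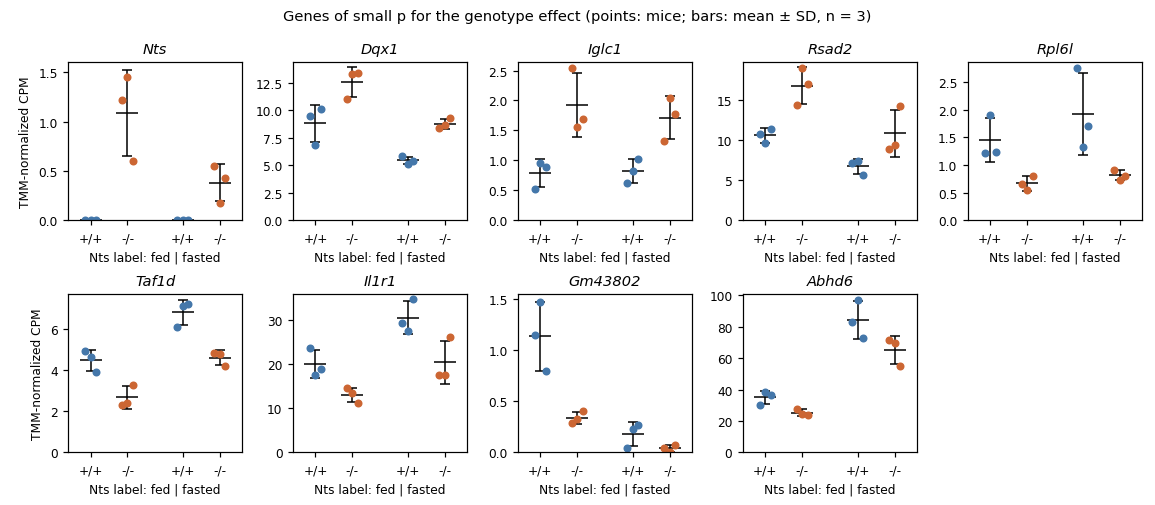
TMM-normalized CPM (vertical axis, from 0) of 4 higher and 5 lower genes named for their small p in each mouse, by genotype label (blue Nts+/+, orange Nts-/-) and feeding state; bars are mean ± SD of 3 mice. Nts is at 0 in all Nts+/+ mice, and in Iglc1 and Rpl6l the genotypes do not overlap even across feeding states.

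The 5 lower genes of smallest p did not pass the test either. Rpl6l (ENSMUSG00000091086), a copy of the ribosomal protein gene Rpl6, was between 1.22 and 2.75 CPM in Nts+/+ mice (median 1.52) and between 0.543 and 0.916 CPM in Nts-/- mice (median 0.770). The 6 mice of each genotype did not overlap, and the log2 fold change was -1.17 (SE 0.22, adjusted p = 0.233). Its reads may be shared with Rpl6, and it lies on chromosome 10, 8.64 Mb from Nts.

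Taf1d, a subunit of the factor that recruits RNA polymerase I to ribosomal DNA, had 4.91, 4.64 and 3.90 CPM in fed and 6.12, 7.11 and 7.24 CPM in fasted Nts+/+ mice. It had 2.33, 2.39 and 3.30 CPM in fed and 4.86, 4.81 and 4.18 CPM in fasted Nts-/- mice. The genotypes were apart within each state, at a log2 fold change of -0.66 (SE 0.13, adjusted p = 0.233). Il1r1, the receptor for interleukin 1, was also apart within each state, with 23.5, 17.4 and 18.9 against 14.5, 13.4 and 11.2 CPM in fed livers and 29.3, 27.5 and 34.6 against 17.6, 17.6 and 26.1 CPM in fasted livers. Its log2 fold change was -0.59 (SE 0.12, adjusted p = 0.343).

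Abhd6, a lipase that hydrolyses monoacylglycerols, followed feeding more than genotype. It was between 30.4 and 38.3 CPM in fed Nts+/+ and between 23.7 and 27.6 CPM in fed Nts-/- mice, and fasting put it at 72.8 to 97.0 and 55.3 to 71.6 CPM. The genotypes did not overlap in either state, and the log2 fold change was -0.42 (SE 0.099, adjusted p = 0.717). Gm43802, a predicted gene with no described product, had 1.14, 1.47 and 0.798 CPM in fed Nts+/+ and 0.291, 0.326 and 0.403 CPM in fed Nts-/- mice. In fasted mice it had at most 0.271 CPM, and the 3 Nts-/- values were at most 0.0709 CPM, about the level of 3 counts (log2 fold change over both states -1.82, SE 0.39, adjusted p = 0.428).

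Ntsr1 and Ntsr2 were nearly silent in these livers, while Sort1, also known as NTSR3, was detected in all of them. Ntsr1 had 0 counts in every mouse and Ntsr2 at most 1, so neither was tested. Sort1 was 10.8 CPM in the median Nts+/+ and 10.2 CPM in the median Nts-/- mouse, and the 6 mice of each genotype overlapped (log2 fold change -0.24, SE 0.17, adjusted p = 0.828). In fasted livers they did not, at 9.57 to 10.7 CPM in Nts+/+ and 5.24 to 9.07 CPM in Nts-/- mice. The difference was 0.052 (SE 0.22) in fed and -0.55 (SE 0.22) in fasted livers. Sorl1, a sorting receptor of the same family, differed by 0.27 (SE 0.24, adjusted p = 0.863). Of the 5 peptidases known to cleave neurotensin, 2 were higher and 3 lower. Ace, the angiotensin-converting enzyme, was lower by a log2 fold change of -0.68 (SE 0.28, adjusted p = 0.762) at levels between 0.322 and 1.38 CPM. Nln (neurolysin) differed by 0.10 (SE 0.073, adjusted p = 0.825) and Thop1 (thimet oligopeptidase) by 0.098 (SE 0.093, adjusted p = 0.877).

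Genes of fatty acid handling showed no shared difference that passed the test. Cd36, the fatty acid translocase, had 37.0, 49.3 and 43.4 CPM in fed and 109, 219 and 141 CPM in fasted Nts+/+ mice. In Nts-/- mice it had 41.2, 87.9 and 55.6 CPM when fed and 252, 240 and 239 CPM when fasted. The fasted groups did not overlap, while the fed groups did, and the log2 fold change was 0.57 (SE 0.19, adjusted p = 0.761), against a fasting effect of 1.92 (SE 0.19). In the list of 15 genes of fatty acid uptake 9 were higher and 6 lower (median 0.093, with -0.030 in fed and 0.18 in fasted livers). Of the 15, 8 had the same sign in both states, and 1 had an unadjusted p under 0.05, which was Cd36. The next were Lrp1, a lipoprotein receptor, at 0.27 (SE 0.13, adjusted p = 0.791) and Lpl, lipoprotein lipase, at 0.34 (SE 0.19, adjusted p = 0.799).

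Fabp1, the cytosolic fatty acid binding protein of hepatocytes, had 4088, 3510.1 and 3419 CPM in fed Nts+/+ and 1906, 2159.6 and 2672 CPM in fed Nts-/- mice, with no overlap. In fasted mice it had 2660.4, 1923 and 2248 CPM in Nts+/+ and 3063, 2426 and 3042 CPM in Nts-/- livers. The log2 fold change was -0.71 (SE 0.17) in fed and 0.32 (SE 0.17) in fasted livers. Over both states, which differed in sign, it was -0.19 (SE 0.18, adjusted p = 0.875). The test of the difference between the states gave 1.03 (SE 0.25), which did not pass either (adjusted p = 0.897).

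No mitochondrial gene passed the test. Of the 78 nuclear genes of oxidative phosphorylation, 43 were higher and 35 lower, with a median log2 fold change of 0.0066, made of -0.13 in fed and 0.15 in fasted livers. Only 23 of the 78 had the same sign in both states, against 7059 of all 13812 genes. By complex, the median was 0.018 for complex I, 0.027 for complex II, 0.0015 for complex III, 0.012 for complex IV and 0.0048 for complex V. The 3 members of smallest p were Usmg5 of the ATP synthase at 0.31 (SE 0.10) and the complex I subunits Ndufb6 at 0.33 (SE 0.11) and Ndufc1 at 0.38 (SE 0.13), each at an adjusted p of 0.761. In all 3 the genotypes overlapped in fed livers and were apart in fasted livers. The share of all genes apart in fasted livers alone was not counted. For Usmg5 the fed mice had 34.7 to 42.2 CPM in Nts+/+ and 41.8 to 53.6 CPM in Nts-/- livers, and the fasted mice 39.6 to 57.3 and 59.7 to 64.7 CPM. In fasted livers Ndufb6 was at most 47.5 and at least 56.5 CPM, and Ndufc1 at most 33.6 and at least 34.7 CPM, in Nts+/+ and Nts-/- mice.

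The 13 protein-coding genes of the mitochondrial DNA had a median of 0.21, with 10 higher and 3 lower and 0 at an unadjusted p under 0.05. The median was -0.053 in fed and 0.30 in fasted livers, and only 5 of the 13 had the same sign in both states. The NADH dehydrogenase subunits mt-Nd6, mt-Nd3 and mt-Nd4 differed by 0.48 (SE 0.24), 0.72 (SE 0.49) and 0.23 (SE 0.17). The share of counts from this DNA overlapped between genotypes, as given above. In the list of 22 fatty acid oxidation genes 15 were higher and 7 lower (median 0.072, with -0.038 in fed and 0.15 in fasted livers). Only 8 of the 22 had the same sign in both states. Etfa, which passes electrons from acyl-CoA dehydrogenases to the respiratory chain, differed by 0.23 (SE 0.11, adjusted p = 0.791), and the peroxisomal thiolases Acaa1a and Acaa1b by 0.23 (SE 0.12) and 0.18 (SE 0.11). The thiolases are close copies and may share reads. In the TCA cycle 10 of 18 genes were higher (median 0.038).

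Of the acyl-CoA dehydrogenases, Acadm (medium chain) differed by 0.13 (SE 0.11) and Acadl (long chain) by -0.029 (SE 0.092), and Hadha, the trifunctional protein, by 0.00064 (SE 0.076). Ppargc1a, the coactivator PGC1α that drives mitochondrial genes, was 6.78, 24.98 and 13.5 CPM in fasted Nts-/- mice and 10.8, 10.3 and 11.0 CPM in fasted Nts+/+ mice. The wide spread among the Nts-/- mice spanned the Nts+/+ group, and the shared log2 fold change was 0.37 (SE 0.23, adjusted p = 0.822). Its target Tfam differed by 0.086 (SE 0.10), and its partners Nrf1, Ppara and Hnf4a by -0.11 (SE 0.11), -0.10 (SE 0.15) and -0.25 (SE 0.12). In the whole list of 14 PGC1 coactivators and partners 7 were higher and 7 lower (median -0.0091).

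**Figure D3:**
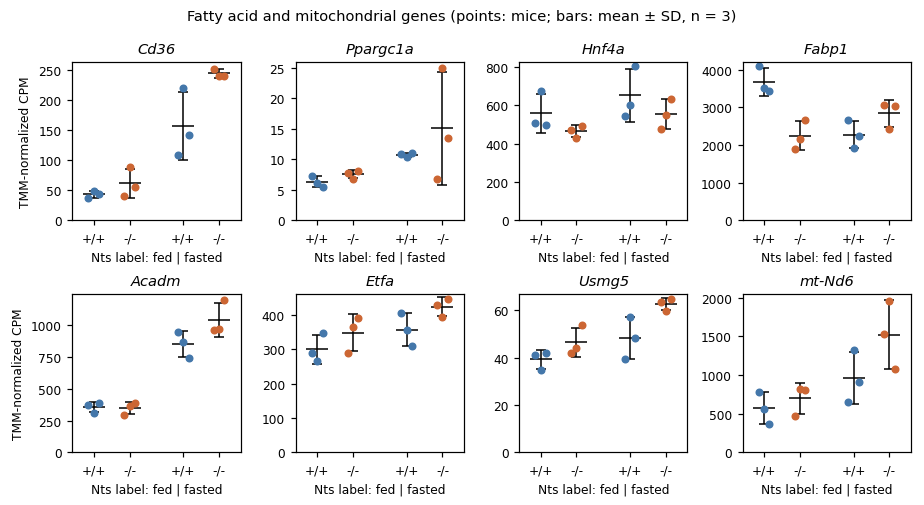
TMM-normalized CPM (vertical axis, from 0) of 8 genes of fatty acid handling and mitochondria in each mouse, by genotype label (blue Nts+/+, orange Nts-/-) and feeding state; bars are mean ± SD of 3 mice. Cd36 is higher in fasted than in fed mice of both genotypes, Fabp1 differs between genotypes in opposite directions in the 2 states, and Ppargc1a varies most among fasted Nts-/- mice.

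Genes induced by interferon leaned towards the libraries labelled Nts-/-. Interferon signals through STAT proteins, which bind response elements before antiviral genes. Of the 25 genes 18 were higher and 7 lower, the median log2 fold change was 0.23 (0.088 fed, 0.38 fasted), and 4 (16.0%) had an unadjusted p under 0.05, all 4 higher, against 6.24% of all genes. None passed after adjustment. Beside Rsad2 these included Usp18, the isopeptidase that removes ISG15 from proteins and restrains the interferon receptor, at 0.63 (SE 0.21, adjusted p = 0.761), and Ifit1, which binds foreign RNA, at 0.73 (SE 0.27, adjusted p = 0.761). The genotypes overlapped for Usp18 in both states, at 8.16 to 9.82 against 8.66 to 18.5 CPM in fed livers. In fasted livers it was 5.67 to 8.10 against 7.51 to 16.6 CPM, in Nts+/+ and Nts-/- mice. For Rsad2, Usp18 and Ifit1 alike, mouse 303 was the highest fed mouse and mouse 295 the highest fasted mouse. Ifit1 had 11.7, 11.1 and 14.5 against 21.2, 34.1 and 14.9 CPM in fed livers, where the genotypes were apart, and 4.32, 5.78 and 4.09 against 4.08, 4.68 and 11.4 CPM in fasted livers, where mouse 295 alone was above the Nts+/+ range.

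The upstream 250 bases of Rsad2 and Ifit1 are shown as the members of smallest p in this list whose sequence is in the RefSeq table. They lie at chr12:26456453-26456702 on the minus strand and chr19:34640639-34640888 on the plus strand (GRCm38.p6). Capitals mark matches to the core of the interferon response element, GAAANNGAAA, on either strand. It was found in 13 of the 21 windows of the list that are in the table (61.9%) and in 3.44% of all windows.
Rsad2: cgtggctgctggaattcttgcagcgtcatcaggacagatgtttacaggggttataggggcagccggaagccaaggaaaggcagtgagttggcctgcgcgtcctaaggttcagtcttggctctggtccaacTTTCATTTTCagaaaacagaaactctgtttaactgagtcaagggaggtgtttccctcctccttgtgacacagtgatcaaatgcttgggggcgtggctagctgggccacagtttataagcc
Ifit1: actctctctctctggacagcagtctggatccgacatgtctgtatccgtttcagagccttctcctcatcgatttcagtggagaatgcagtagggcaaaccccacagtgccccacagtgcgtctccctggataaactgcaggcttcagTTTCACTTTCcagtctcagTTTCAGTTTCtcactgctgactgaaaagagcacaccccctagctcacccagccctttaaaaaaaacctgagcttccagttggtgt

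Cholesterol synthesis genes, which SREBP2 drives when sterols are low, were higher in 22 of 24 cases (median 0.26), and the higher values were those of fed livers. The median was 0.59 in fed and -0.11 in fasted livers, and only 6 of the 24 had the same sign in both states. Fdft1, squalene synthase, had 144, 99.7 and 149 CPM in fed Nts+/+ and 257, 304 and 155 CPM in fed Nts-/- mice, without overlap, and was between 32.6 and 45.9 CPM in all fasted mice. Its log2 fold change was 0.87 (SE 0.23) in fed and 0.044 (SE 0.23) in fasted livers. Over both states it was 0.46 (SE 0.20, adjusted p = 0.766), and the difference between the states was -0.82 (SE 0.32, adjusted p = 0.897). Mvk (mevalonate kinase) and Sc5d (sterol desaturase) differed by 0.34 (SE 0.19) and 0.27 (SE 0.16). In the list of lipogenesis genes 11 of 17 were higher (median 0.078, with 0.21 in fed and -0.18 in fasted livers), and 8 had the same sign in both states.

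**Figure D4:**
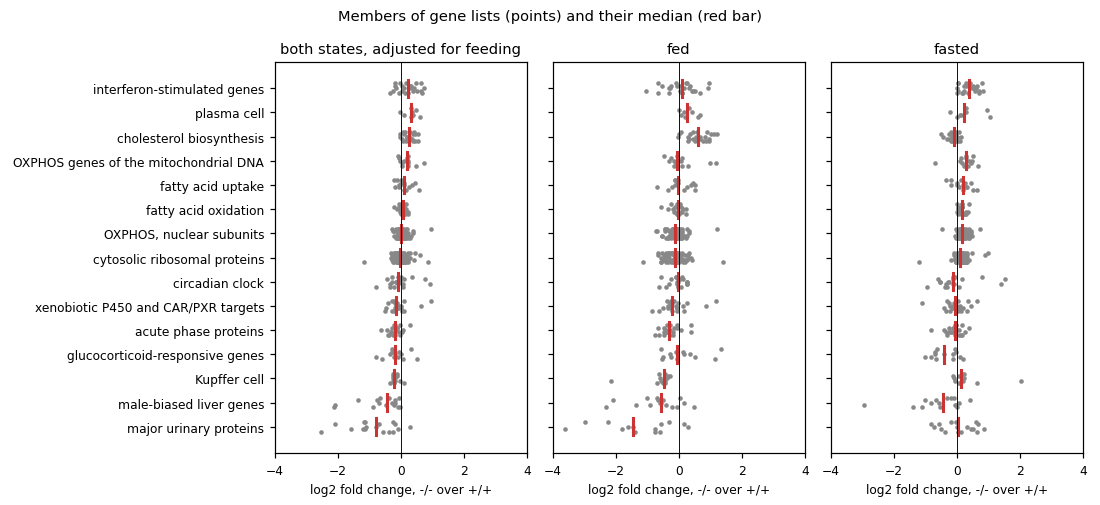
Log2 fold changes between libraries labelled Nts-/- and Nts+/+ (horizontal axes) of the tested members of 15 gene lists (grey points), with the median of each list as a red bar, over both states, in fed and in fasted livers. The cholesterol list sits at 0.59 in fed and -0.11 in fasted livers, and the male-biased list at -0.58 and -0.43.

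Liver genes that are higher in males, under the pulsed pattern of growth hormone, were lower in these female Nts-/- mice in 16 of 16 cases, with a median log2 fold change of -0.43 (-0.58 fed, -0.43 fasted). None passed the test, 2 (12.5%, against 6.24% of all genes) had an unadjusted p under 0.05, and 11 of 16 had the same sign in both states, against 7059 of all 13812. Hsd3b5, a steroid dehydrogenase, had 2.03, 1.07 and 3.06 CPM in fed Nts+/+ and 0.873, 0.109 and 0.161 CPM in fed Nts-/- mice. These groups did not overlap, while all fasted mice lay at or below 0.0992 CPM, about the level of 3 counts (log2 fold change -2.13, SE 0.55, adjusted p = 0.761). Slco1a1, an organic anion transporter, spread from 4.86 to 196 CPM in Nts+/+ and from 1.09 to 91.7 CPM in Nts-/- mice, with overlap (-2.08, SE 0.78, adjusted p = 0.761). Mup21 differed by -0.68 (SE 0.33, adjusted p = 0.791). Of 18 female-biased genes 11 were higher and 7 lower (median 0.032, with -0.17 in fed and 0.087 in fasted livers).

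The major urinary proteins are pheromone carriers secreted by hepatocytes, and their genes are near-identical copies that share reads, so single members are uncertain. Of the 17 tested, 16 were lower, with a median of -0.78 (-1.45 fed, 0.023 fasted), and 7 had the same sign in both states. Mup3 had 3318, 3223 and 3847 CPM in fed Nts+/+ and 2377, 2356 and 1417 CPM in fed Nts-/- mice, without overlap. In fasted mice it had 2173, 1277 and 2218 against 1502, 1442 and 1443 CPM, with overlap (log2 fold change -0.56, SE 0.16, adjusted p = 0.761). Mup1 and Mup7 were low, at most 0.621 and 2.88 CPM, and differed by -1.12 (SE 0.46) and -1.11 (SE 0.53).

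Acute phase genes, which hepatocytes express in response to interleukin 6 and interleukin 1, were lower in 19 of 22 cases (median -0.17; -0.33 fed, -0.065 fasted). Orm1, the α1-acid glycoprotein, was 440 to 883 CPM in Nts+/+ (median 578) and 351 to 668 CPM in Nts-/- mice (median 380). The fed mice overlapped, while the fasted mice did not, at 440 to 520 CPM in Nts+/+ and 362 to 385 CPM in Nts-/- livers. The log2 fold change was -0.40 (SE 0.14, adjusted p = 0.761). Lbp, which presents endotoxin to CD14, differed by -0.31 (SE 0.12), and Orm2, a close copy of Orm1, by -0.42 (SE 0.20). Beside these and Il1r1, 11 of the 12 Kupffer cell markers were lower (median -0.20; -0.48 fed, 0.13 fasted), with 0 at an unadjusted p under 0.05. Their sum was 765 to 802 CPM in fed Nts+/+ and 498 to 685 CPM in fed Nts-/- livers, and it overlapped in fasted livers at 363 to 642 and 439 to 662 CPM. The part of Kupffer cells in the acute phase values was not tested.

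Clock genes were mixed. Of the 20 tested, 7 were higher and 13 lower (median -0.090). Cry1, the cryptochrome repressor, had 19.1, 40.2 and 29.1 CPM in fed and 47.1, 32.8 and 32.0 CPM in fasted Nts+/+ mice, against 16.7, 17.4 and 23.1 CPM in fed and 32.2, 16.6 and 9.12 CPM in fasted Nts-/- mice. The groups overlapped in both states (log2 fold change -0.79, SE 0.28, adjusted p = 0.761). Dbp, an output gene of the clock, differed by 0.93 (SE 0.45, adjusted p = 0.791), with mouse 295 at 8.83 CPM and every other mouse at or below 2.37 CPM. Npas2, a partner of Bmal1, differed by -0.28 (SE 0.21). The hour at which each mouse was killed is not given in the sources used here.

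Genes responsive to glucocorticoids were lower in 9 of 13 cases (median -0.18, with -0.051 in fed and -0.42 in fasted livers). Only 5 of the 13 had the same sign in both states. Fkbp5, a cochaperone that restrains the glucocorticoid receptor, was 38.5 to 112 CPM in Nts+/+ and 37.2 to 67.6 CPM in Nts-/- mice. The fed mice overlapped, and the fasted mice were apart, at 75.0 to 112 and 51.3 to 67.6 CPM (log2 fold change -0.60, SE 0.17, adjusted p = 0.761). Dusp1, a phosphatase of MAP kinases, differed by -0.77 (SE 0.41), with the Nts+/+ fasted mouse 265 at 75.3 CPM and every other mouse at or below 21.7 CPM. Zbtb16 differed by -0.34 (SE 0.36). Of the 23 P450 genes and targets of the receptors CAR and PXR, 16 were lower (median -0.15), led by Cyp1a2 at -0.49 (SE 0.21), Cyp3a11 at -0.46 (SE 0.22) and the P450 reductase Por at -0.16 (SE 0.083).

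Collagens and basement membrane genes were higher in 18 of 24 cases (median 0.088; 0.24 fed, -0.035 fasted), led by Col1a1 at 0.60 (SE 0.26), Col6a3 at 0.48 (SE 0.21) and Lama4 at 0.27 (SE 0.14). Of the 85 cytosolic ribosomal protein genes 40 were higher and 45 lower (median -0.021), and beside Rpl6l those of smallest p, Rps27l and Rpl22, differed by 0.41 (SE 0.15) and 0.26 (SE 0.096). Chaperones and genes of the unfolded protein response were lower in 16 of 18 cases by small amounts (median -0.066). Their median was 0.031 in fed and -0.15 in fasted livers, and 8 of the 18 had the same sign in both states. Heat shock genes were lower in 12 of 16 cases (median -0.093). In none of these lists did a gene pass the test.

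The remaining lists also held no gene past the threshold. Higher members were 10 of 22 for triglyceride and lipid droplet genes (median -0.012), 9 of 21 for bile acid genes (median -0.021) and 6 of 20 for genes that fasting induces (median -0.050). They were 7 of 17 for the ATF4 stress response (median -0.047), 10 of 21 for NRF2 targets (median -0.0035) and 10 of 20 for the cell cycle (median -0.0046). Pericentral genes were higher in 6 of 16 cases (median -0.10) and periportal genes in 8 of 13 (median 0.019). Immediate early genes were higher in 6 of 13 cases (median -0.030) and MHC class II genes in 3 of 9 (median -0.022). Among the clustered zinc finger genes of distal chromosome 2, 17 were higher and 17 lower (median 0.00081).

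Genes near the targeted locus were examined separately because they are inherited together with it. Within 20 Mb of Nts, 152 genes were tested, of which 73 were higher and 79 lower (median -0.0031) and none passed the test. Before adjustment 16 of them (10.5%) had a p under 0.05, against 6.24% of all genes and 7.09% of those on chromosome 10. Both of these shares include the genes of the window itself and Nts. The 3 of smallest p were Rpl6l and Cry1, described above, and the noncoding 1810014B01Rik, 15.8 Mb from Nts, at 0.58 (SE 0.18, adjusted p = 0.761) and 1.25 to 2.48 CPM in Nts+/+ against 1.90 to 3.51 CPM in Nts-/- mice, which overlapped in fed and not in fasted livers. Cry1 lies 17.4 Mb from Nts.

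The difference of the genotype effect between feeding states passed the test in 0 genes by edgeR, with 663 genes (4.80%) at an unadjusted p under 0.05, and in 3 genes by the Wald test of DESeq2. Named genes with close values in both states were Rpl6l, at -1.12 (SE 0.33) in fed and -1.22 (SE 0.32) in fasted livers, Il1r1, at -0.62 (SE 0.18) and -0.57 (SE 0.18), and Iglc1, at 1.30 (SE 0.32) and 1.03 (SE 0.32). Values differed more between the states in Slco1a1, at -1.35 (SE 1.02) and -2.95 (SE 1.15), and in Dbp, at 0.24 (SE 0.67) and 1.41 (SE 0.57), where the standard errors were also large.

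**Figure D5:**
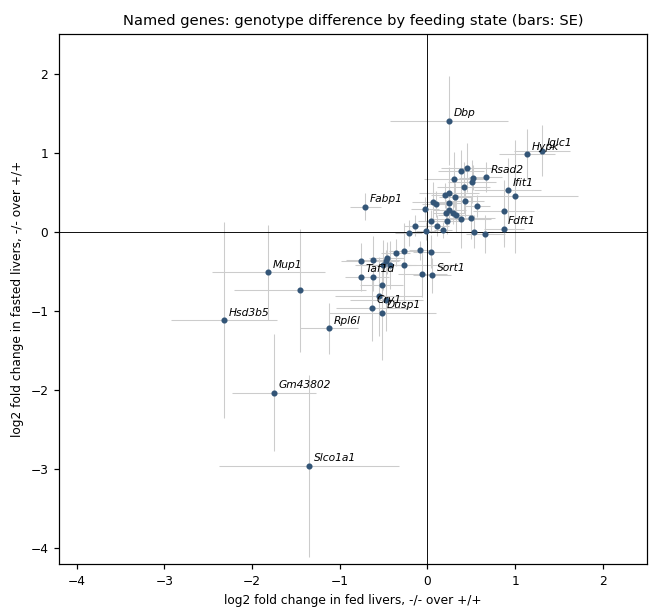
Log2 fold change between libraries labelled Nts-/- and Nts+/+ in fed (horizontal) and in fasted livers (vertical) for the named genes other than Nts, with bars of 1 SE. Rpl6l, Iglc1 and Rsad2 lie near equal values in both states, while Fabp1 lies at -0.71 in fed and 0.32 in fasted livers.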

How the data were processed

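Liver RNA of 12 mice was sequenced, 3 in each of 4 groups. The authors deposited 1 table of expected counts, estimated reads per gene that are not scaled between mice, with GRCm38 positions; per the submitters' processing notes, Trimmomatic and RSEM were used, with versions not given in the sources used here. Of the table's values, 7.94% were not exactly whole, and all were rounded. Columns of other samples numbered 0. How reads of close copies were divided follows RSEM's estimate.

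Low genes were removed with filterByExpr over the 4 groups (edgeR 4.0.16, R 4.3.3). After TMM normalization the model held feeding plus genotype terms, with robust quasi-likelihood tests and Benjamini-Hochberg adjustment over 13812 genes. The biological coefficient of variation was 0.204. Fed and fasted values come from a model with a mean per group, and the interaction was tested in it. Replicates are separate mice. CPM of Nts is scaled to library totals, and CPM of other genes is TMM-normalized too. Floors of 3 counts cover counting error only. Alternatives used DESeq2 1.42.0, limma 3.58.1 and sva 3.50.0. Steps were tested on simulated data, with changes planted only in genes of higher level than Nts, Iglc1, Rpl6l and Gm43802. That test does not cover genes as low as these.

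Members and lists were chosen with earlier results of these data known. The genes named are those past the threshold, or up to 5 of smallest p in each direction, genes the study names, and up to 3 of smallest p in lists described; others are marked, and 1 gene that the rule names is not reported here. Groups were taken from the labels. RefSeq promoters (GRCm38.p6) were matched by symbol.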

Additional observations from a re-analysis of the deposited data

Results flagged for a closer look

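Among 131 sets of 6 mice (66 named genes in each genotype, centred within feeding state, without the set of Nts in which all mice are at 0), 1 held a mouse far from the others. Mup3 in Nts-/- mouse 319 was the lowest of its genotype, with a gap to the next mouse of 0.635 of the whole range, or 0.47 on the log2 scale. With 6 independent values chance would flag about 1 set in 20. Values centred within feeding state are not independent, so that rate does not hold exactly here.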

How the results depend on the processing

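The count of genes called for the shared genotype effect was 1 and stayed at 1 with RLE normalization, limma-voom, limma-trend, no filter, protein-coding genes only, no mitochondrial DNA genes, an adjusted p under 0.10 or a log2 fold change of at least 1. It was also 1 in fasted mice alone, where the gene was Klkb1 and not Nts. It was 0 with upper-quartile normalization (Nts at an adjusted p of 0.0509), with the averaged contrast of group means (0.0560), with genotype alone, in fed mice alone, with 1 surrogate variable, and with at least 10 counts in every mouse, a filter that removes Nts by construction. It was 13 in the DESeq2 Wald test, which included Nts (adjusted p = 4.5e-08), Dqx1, Rsad2, Hypk, Iglc1, Stard3nl, Taf1d, Il1r1 and Rpl6l. Leaving out each mouse gave between 0 and 2 genes. The interaction count of 0 was 3 with DESeq2 (Arl4d, Gm26675 and Nr1i3, named after their values were seen, like Klkb1) and between 0 and 1 with each mouse left out. The cause was not tested. The exact p for Nts was between 0.005 and 0.01 with each mouse left out.

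Directions of single genes turned in fed mice alone for Sort1 (0.051), Acadm (-0.028), Hadha (-0.016) and Ppara (0.045), and in fasted mice alone for Acadl (0.091), Fabp1 (0.33) and Mvk (-0.023). Hadha, near 0, ranged from -0.026 to 0.021 with each mouse left out and was -0.0081 with limma-voom and -0.0047 without mouse 257, -0.0041 without 265, -0.0097 without 322, -0.0078 without 319, -0.0045 without 290 and -0.026 without 295. Acadl ranged from -0.067 to 0.017 and was 0.017 without mouse 323 and 0.011 without mouse 277.

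No paired analysis was possible because the labels give the groups no shared replicate numbers. Depth limits Nts, Hsd3b5, Gm43802 and Mup1, which had libraries near or below 3 counts.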
